A study of Rattus norvegicus with 4 samples.

Results

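The genes described here are 10 genes of interleukin-1 (IL-1), interleukin-6 (IL-6) and NF-κB signalling, namely Il1a, Il1b, Il1r1, Il1r2, Il6r, Il6st, Nfkb1, Nfkbia, Icam1 and Ccl5. They were taken by symbol alone: every probe of the array whose annotation names exactly 1 gene, and that gene is one of the 10. This gave 12 of the 1936 probes, with 2 probes each for Il1b and Ccl5 and 1 for each other gene. The study measured liver RNA of male Sprague-Dawley rats with the common bile duct ligated for 1 h, which blocks the flow of bile, relative to a sham operation in which the duct was exposed but not tied. On each of 4 two-colour cDNA arrays the ligated and the sham RNA were hybridised together, and Cy5 marked the ligated RNA on arrays 1 and 3, with the dyes swapped on arrays 2 and 4. RNA from livers of rats killed in groups of 3 was mixed before labelling, and the labels do not state if the arrays had separate RNA, so the spread between arrays may be technical and is not a spread between animals. The arrays hold ratios and no levels, so neither the level of a gene nor the liver identity of the RNA could be checked from them.

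IL-1α and IL-1β are alarm cytokines that act through the receptor IL-1R1, while IL-1R2 binds IL-1 without signalling and so acts as a decoy. Their signal, like that of tumour necrosis factor, releases NF-κB transcription factors from inhibitor proteins, and NF-κB then switches on genes for adhesion molecules, chemokines and its own inhibitor. IL-6, which binds IL-6R and signals through the shared chain gp130, is the main inducer of acute phase proteins in hepatocytes, and Kupffer cells, the macrophages of the liver, are a main source of both cytokines there. In bulk liver RNA, fewer cells of a type and less RNA per cell cannot be told apart.

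None of the 12 probes passed the test in either direction (limma adjusted p under 0.05, adjusted over all 1936 probes), where 5.73% of all probes did. The inhibitor gene Nfkbia lay highest, with an estimated log ratio of 0.22 ± 0.084 (SE, n = 4 arrays), and Il1a and Icam1 lay lowest, at -0.24 ± 0.091 and -0.21 ± 0.084. These 3 probes had unadjusted p-values under 0.05, which makes 25% of the 12 against 14.3% of all probes. The other 9 probes had estimates between -0.038 and 0.12. Of the 12 estimates 9 were above 0, against 39.7% of all probes, and after a dye curve per block (defined with Il1a below) 7 were, against 51.1%.

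A value is the logarithm of ligated over sham, with a base that the sources used here do not give; no fold is stated without naming a base. The direction is not stated in the sources used here, and was read from the channel order in the labels as ligated over sham. It would turn throughout if sham had been the numerator. As deposited the array medians were -0.88, 0.75, -0.73 and 0.87 and followed the dye, so each array was centred on its median and the dye was fitted as a second term. For scale, Nr0b2, a nuclear receptor gene that bile acids induce, had deposited values between 0.94 and 1.27 at its 2 probes on all arrays. Were the values Cy5 over Cy3 instead, 7 of the 12 probes would pass (3 higher and 4 lower), where 82.6% of all probes would, and the dye contrast given below for each probe would be its estimate. In that reading the ratio of Nr0b2, above 0 on all arrays, would be a dye contrast and not an effect of the operation.

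**Figure D1:**
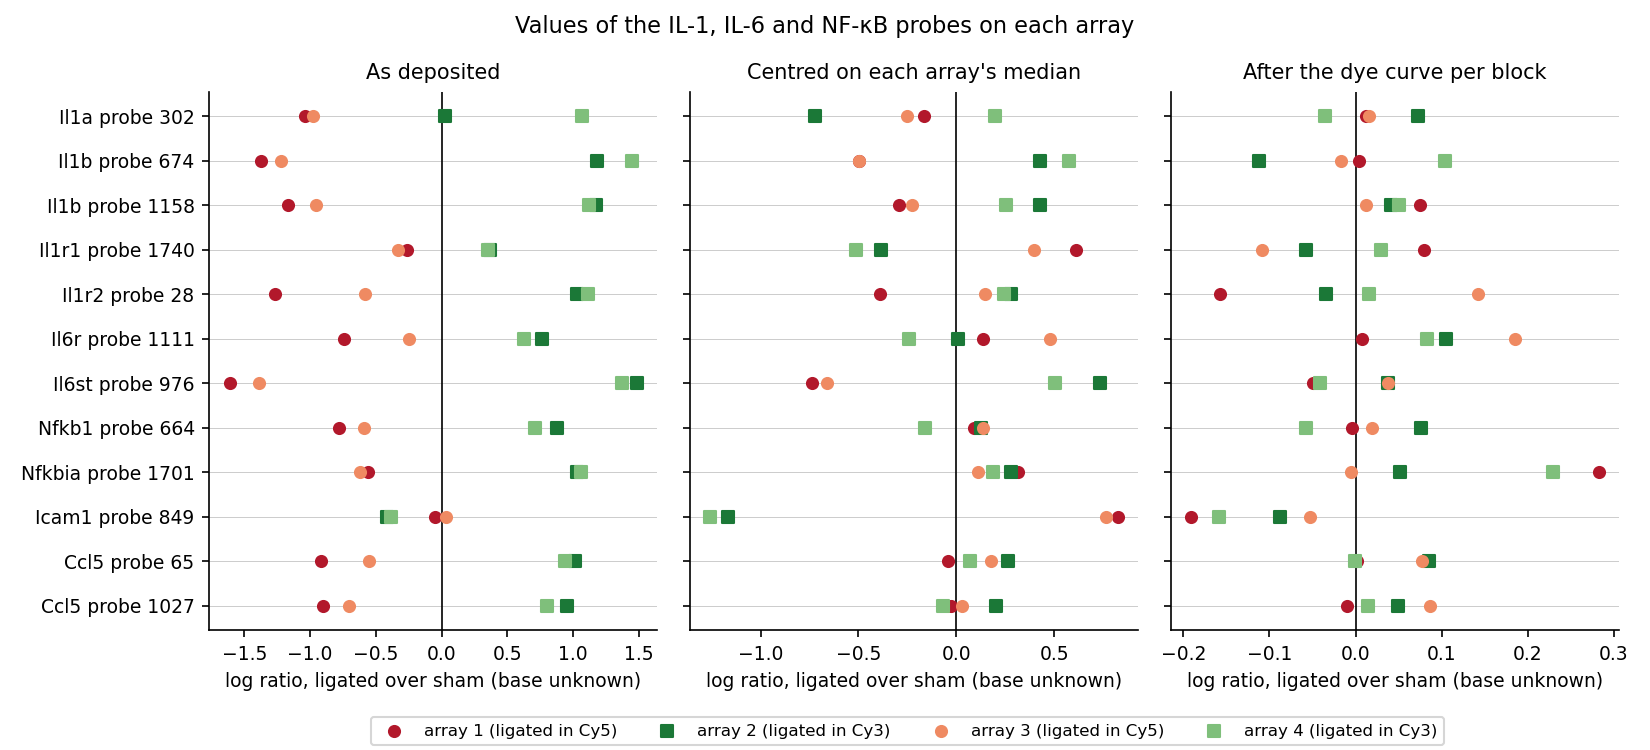
Log ratio of ligated over sham (x axis, base unknown) of each of the 12 probes (y axis) on arrays 1 to 4, as deposited, after centring and after the dye curve per block; the panels have different x scales, circles are arrays with the ligated RNA in Cy5 and squares arrays with it in Cy3. As deposited, 11 probes lie below 0 on the circles and above 0 on the squares, with Icam1 the exception, and after centring Nfkbia alone lies above 0 on all 4 arrays.

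The ligand genes gave no passing ratio. Il1a, which encodes the form of IL-1 that is active as a precursor and released from damaged cells, had deposited values of -1.04, 0.028, -0.98 and 1.07 on arrays 1 to 4, and centred values of -0.17, -0.72, -0.25 and 0.20. Array 2 was the low one and array 4 the only one above 0. The estimate was -0.24 ± 0.091 (95% interval -0.42 to -0.054; limma adjusted p = 0.133), but it rested on array 2: without that array it was -0.0060 ± 0.086 (limma adjusted p = 0.995), and without array 4 it was -0.47 ± 0.086 (limma adjusted p = 1.5e-06). With an array left out, 1 dye orientation has a single array, assumed to vary like the rest, and limma gave all probes the same SE, so these p-values hold nothing of a probe's own spread. Without array 4, 2 of the 12 probes passed (Il1a and Nfkbia), where 12.4% of all probes did. The probe lies in the third of 16 equal runs of consecutive probe numbers, called blocks here, and the 121 probes of that block had a median centred value of -0.87 on array 2 and of -0.026, -0.20 and 0.13 on arrays 1, 3 and 4. Their median estimate was -0.29, next to which the Il1a probe was not low. When a smooth curve on the dye contrast was removed within each block of each array (the dye curve per block), the values of Il1a became 0.012, 0.072, 0.016 and -0.036 and the estimate 0.016 ± 0.036 (limma adjusted p = 0.874). The sign of Il1a thus turned with the normalization.

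Il1b, the gene of the form that macrophages secrete after cleavage by caspase-1, was measured by 2 probes in other blocks, and both lay close to 0. Probe 674 had centred values of -0.50, 0.43, -0.50 and 0.58, and probe 1158 had -0.30, 0.43, -0.23 and 0.25. In both, the arrays split by dye, with the Cy5 arrays low and the Cy3 arrays high, and the operation estimates were 0.0030 ± 0.084 and 0.040 ± 0.084 (limma adjusted p = 0.991 each). Their 95% intervals ran from -0.16 to 0.17 and from -0.13 to 0.21. If the base is 2, the upper ends are 1.12-fold and 1.15-fold, but the intervals hold no spread between animals and do not exclude larger rises of Il1b. These intervals, like all SEs here, draw mainly on a pooled spread and little on a probe's own 4 values. For Il1a the SE from its own 4 centred values alone was 0.23, against the 0.091 given above, so its interval above is too narrow for its own spread.

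With the dye curve per block 0 of the 12 probes passed, where 6.97% of all probes did, and 3 had an unadjusted p under 0.05 (25%, against 20.6%).

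The IL-1 receptor genes Il1r1 and Il1r2 had estimates smaller than their SE. Il1r1, the signalling receptor, had deposited values of -0.26, 0.37, -0.33 and 0.36, which parted by dye and almost cancelled within each dye-swapped pair. The estimate was 0.028 ± 0.084 (95% interval -0.14 to 0.20; limma adjusted p = 0.991). Il1r2, the decoy, had -1.27, 1.03, -0.58 and 1.12, and its Cy5 arrays 1 and 3 differed from each other more than those of Il1r1 did. Its estimate of 0.070 ± 0.086 (95% interval -0.10 to 0.24; limma adjusted p = 0.932) was -0.064 without array 3 and 0.20 without array 1. The signalling receptor and the decoy therefore gave ratios whose intervals overlap almost fully, and each of them includes 0.

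Il6r, the IL-6 binding chain that hepatocytes carry, had deposited values of -0.74, 0.76, -0.25 and 0.63 and centred values of 0.13, 0.010, 0.48 and -0.24. Array 3 was the high one. The estimate was 0.095 ± 0.085 (95% interval -0.075 to 0.26; limma adjusted p = 0.822), with values of 0.0090 without array 3, 0.032 without array 2, 0.16 without array 4 and 0.18 without array 1. After the dye curve per block it kept its size at 0.095 with a smaller error of 0.039, with all 4 values above 0 (0.0079, 0.10, 0.19 and 0.083), and did not pass (limma adjusted p = 0.192; unadjusted p = 0.0332). Il6st, the gp130 chain shared by the receptors of the IL-6 family, had a wide dye split, with deposited values of -1.61, 1.49, -1.39 and 1.38. Its estimate was -0.038 ± 0.084 (95% interval -0.21 to 0.13; limma adjusted p = 0.991) and -0.0043 ± 0.036 with the dye curve per block removed.

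**Figure D2:**
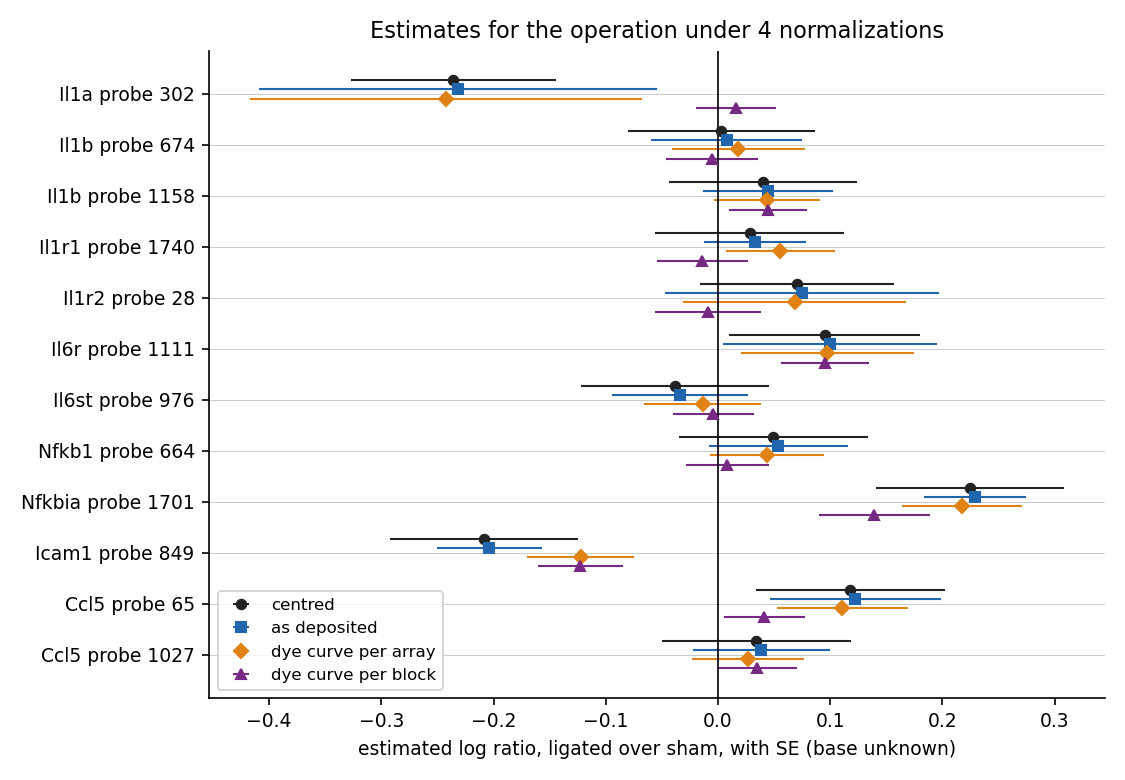
Estimated log ratio of ligated over sham (x axis, base unknown; bars are SE of the limma fit over 4 arrays) for each of the 12 probes (y axis) after centring, as deposited, after a dye curve per array and after a dye curve per block. Nfkbia lies above 0 and Icam1 below 0 under all 4 normalizations, while Il1a moves to 0.016 after the dye curve per block.

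Nfkb1 encodes the precursor of a DNA-binding NF-κB subunit, and Nfkbia encodes IκBα, the inhibitor that holds NF-κB in the cytoplasm and whose gene is itself a rapid NF-κB target. The Nfkb1 probe had centred values of 0.092, 0.13, 0.14 and -0.16, so that array 4 stood apart from the others, and an estimate of 0.049 ± 0.084 (95% interval -0.12 to 0.22; limma adjusted p = 0.979). The Nfkbia probe had deposited values of -0.56, 1.03, -0.62 and 1.06 and centred values of 0.32, 0.28, 0.11 and 0.19. It was above 0 on all 4 centred arrays, alone among the 12 probes (8.33%, against 1.91% of all probes with the same sign on all 4 arrays), but not as deposited, where the sign follows the dye.

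The estimate for Nfkbia was 0.22 ± 0.084 (95% interval 0.057 to 0.39; limma unadjusted p = 0.00914, adjusted p = 0.116), the 23rd highest of 1936. If the base is 2 it is 1.17-fold, with an interval of 1.04 to 1.31. In each of the 4 pairs of a Cy5 and a Cy3 array, whose mean cancels the dye, the ratio lay between 0.15 and 0.30 after centring and between 0.21 and 0.25 as deposited. The exact two-sided sign-flip permutation test over the 4 centred values gave p = 0.125, the smallest that 4 arrays allow. The same sign-flip permutation test, which has no dye term, gave p = 0.375 for Il1a and p = 0.75 for Icam1. After the dye curve per block the values were 0.28, 0.052, -0.0053 and 0.23 and the estimate was 0.14 ± 0.050, again not past the threshold (limma adjusted p = 0.129; 82nd highest). It passed without array 4 (0.25 ± 0.086, limma adjusted p = 0.0367) and in a fit without blocks 3 and 4 (0.20 ± 0.065, limma adjusted p = 0.0333), a setting chosen after the values were seen.

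Icam1, the endothelial and hepatocyte adhesion molecule that leukocytes bind, had deposited values of -0.051, -0.41, 0.035 and -0.39. It was the one probe of the 12 whose deposited values were lower with the ligated RNA in Cy3 than in Cy5, and its centred dye contrast of 1.00 ranked 79th from the highest of 1936. The estimate for the operation was -0.21 ± 0.084 (95% interval -0.37 to -0.042; limma unadjusted p = 0.0147, adjusted p = 0.157), and all 4 dye-cancelling pairs were below 0, between -0.25 and -0.17. A shared sign in all 4 pairs was seen in 3 of the 12 probes (Nfkbia, Icam1 and Ccl5 probe 65), against 37.7% of all probes. The 100 probes nearest to it in dye contrast had a median estimate of -0.095 (quartiles -0.18 and -0.012), so Icam1 lay below most of them and by less than its distance from 0. With a dye curve per array or per block the estimate was nearer to 0, at -0.12 ± 0.048 and -0.12 ± 0.038 (limma adjusted p = 0.535 and 0.0804). In the fit without blocks 3 and 4 it passed as lower (-0.24 ± 0.065, limma adjusted p = 0.00627), and there 2 of the 11 remaining probes passed (Nfkbia and Icam1), where 7.97% of all remaining probes did. All 11 had the same SE of 0.065 in that fit, so its p-values, for Nfkbia too, hold nothing of a probe's own spread.

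Ccl5, the chemokine that draws T cells and monocytes, had 2 probes with a small dye contrast on centred values. Probe 65 had centred values of -0.042, 0.26, 0.18 and 0.072, and probe 1027 had -0.029, 0.20, 0.028 and -0.066. Array 2 was the highest in both. The estimates were 0.12 ± 0.084 and 0.034 ± 0.084 (limma adjusted p = 0.671 and 0.991), with 95% intervals of -0.050 to 0.29 and -0.13 to 0.20, and after the dye curve per block they were 0.041 ± 0.036 and 0.035 ± 0.036. With each array left out in turn probe 65 had 0.063 to 0.17 and probe 1027 -0.033 to 0.10. Averaged over probes, Ccl5 had 0.076 ± 0.075 and Il1b 0.021 ± 0.072 in the fit over 958 genes (limma adjusted p = 0.812 and 0.978).

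**Figure D3:**
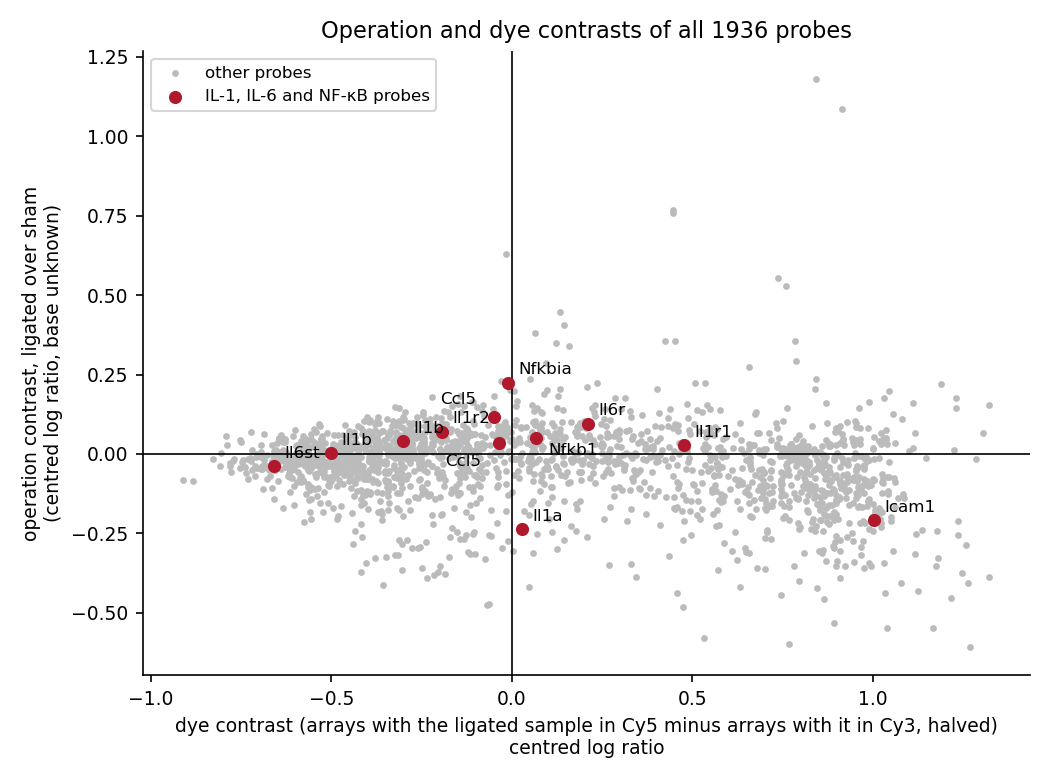
Operation contrast (y axis) against dye contrast (x axis) of all 1936 probes on centred values (log ratio, base unknown), with the 12 probes in red and the others in grey. The 12 probes spread over most of the dye range, from -0.66 for Il6st to 1.00 for Icam1, while their operation contrasts stay between -0.24 and 0.22.

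The upstream sequences of the 2 NF-κB target genes that lay on opposite sides of 0, Nfkbia and Icam1, and of the subunit gene Nfkb1 are shown because NF-κB binds such target genes directly. Each runs from 250 bases before the gene's start to 50 after it, in GRCr8 coordinates from RefSeq, and is printed 5′ to 3′ along the gene's strand. Capitals mark matches, on either strand, to a loose form of an NF-κB site, which is GGG, any 5 bases and CC. Sites that depart from this form were not searched for and are not marked.
Nfkbia, chr6:78597023-78597322, minus strand: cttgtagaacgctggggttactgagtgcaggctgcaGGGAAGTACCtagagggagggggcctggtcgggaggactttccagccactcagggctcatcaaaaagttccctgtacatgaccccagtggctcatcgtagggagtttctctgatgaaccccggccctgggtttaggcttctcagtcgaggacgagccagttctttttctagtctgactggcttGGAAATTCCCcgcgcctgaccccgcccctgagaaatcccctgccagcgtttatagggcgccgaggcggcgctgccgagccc
Nfkb1, chr2:226805413-226805712, minus strand: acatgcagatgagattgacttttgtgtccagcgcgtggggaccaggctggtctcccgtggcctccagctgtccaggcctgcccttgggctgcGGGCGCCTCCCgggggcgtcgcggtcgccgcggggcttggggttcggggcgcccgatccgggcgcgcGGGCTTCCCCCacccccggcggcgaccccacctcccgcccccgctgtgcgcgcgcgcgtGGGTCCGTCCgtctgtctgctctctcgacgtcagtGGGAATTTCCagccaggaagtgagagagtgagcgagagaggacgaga
Icam1, chr8:27829595-27829894, plus strand: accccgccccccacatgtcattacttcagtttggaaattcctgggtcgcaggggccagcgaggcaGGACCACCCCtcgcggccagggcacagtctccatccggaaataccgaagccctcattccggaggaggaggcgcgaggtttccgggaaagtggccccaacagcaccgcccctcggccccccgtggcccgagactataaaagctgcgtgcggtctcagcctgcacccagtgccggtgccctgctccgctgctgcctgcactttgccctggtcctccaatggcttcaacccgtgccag
Nfkbia held 2 matches, of which the one nearer the start begins 31 bases before it. Nfkb1 held 7, counting overlaps and a match on both strands, and Icam1 held 1. Of the 8 genes matched by symbol among the RefSeq promoters, 6 held at least 1 match, and 47.3% of all 33469 promoter windows of 300 bases did, so a match to so loose a motif is common. The matches are a description of these letters, and Nfkbia and Icam1 both hold one although their ratios lay on opposite sides of 0.

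**Figure D4:**
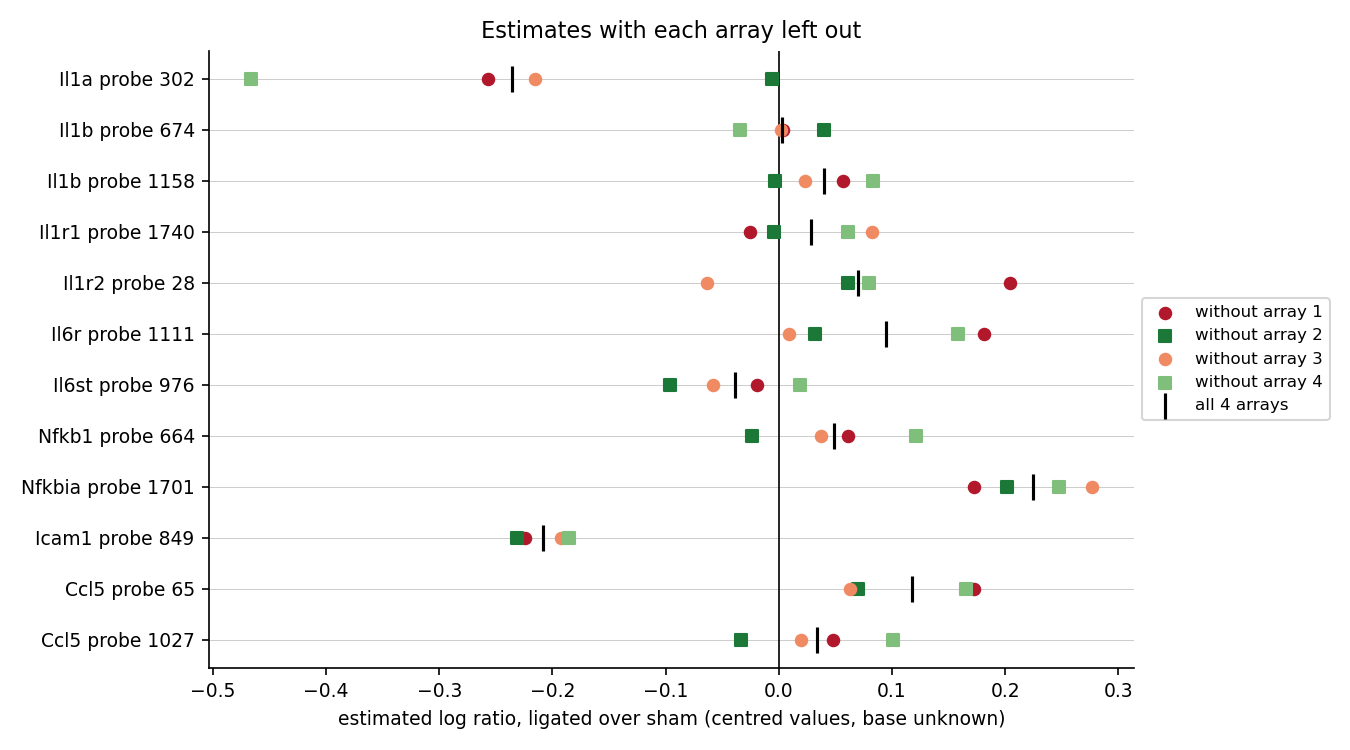
Estimated log ratio of ligated over sham (x axis, centred values, base unknown) of each of the 12 probes (y axis) with each array left out in turn, and with all 4 arrays as a vertical tick. Il1a ranges from -0.47 to -0.0060, Nfkbia from 0.17 to 0.28 and Icam1 from -0.23 to -0.19.

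Other genes of these pathways were taken as lists, with probes averaged. Among 20 receptors, ligands and adaptors upstream of NF-κB 6 were measured, and 0 rose and 0 fell (median 0.018, against -0.024 over all 958 genes, of which 12 rose and 28 fell, 4.18% in all). This split moved with the normalization: 25 rose and 27 fell after the dye curve per block, and 2 rose and 0 fell without centring. Il1rap, the accessory chain of the IL-1 receptor, had 0.059 ± 0.075, and Tnf, the gene of tumour necrosis factor, 0.065 ± 0.076 (limma adjusted p = 0.889 and 0.884). Il1rl1, the receptor of IL-33, has the probe number next to that of Il1a, in block 3. It gave -0.32 ± 0.11, against -0.027 ± 0.028 once block curves were removed (limma adjusted p = 0.121 and 0.666). Its probe by itself passed as lower before that curve (-0.32 ± 0.093, limma adjusted p = 0.0243).

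Of the 29 NF-κB subunits, kinases, inhibitors and targets 5 were measured, with 0 higher and 0 lower (median 0.020). Nfkb2, the gene of another NF-κB precursor, gave -0.11 ± 0.093, against 0.084 ± 0.029 once block curves were removed (limma adjusted p = 0.726 and 0.147); its probes lie in blocks 3 and 4. Irf1, a transcription factor gene induced by interferon and NF-κB, had 0.092 ± 0.073, and Vcam1, an adhesion molecule related in function to Icam1, 0.020 ± 0.073 (limma adjusted p = 0.694 and 0.982). Il1rn, Il18, Il6, Socs3, Rela and Tnfrsf1a were looked for, but no probe had any of them as its single symbol.

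In the list of the IL-6 family, its JAK-STAT pathway and liver targets 11 of 27 genes were measured, of which 0 rose and 2 fell (median -0.043). The genes that fell were Serpina3n, a serine protease inhibitor (-0.37 ± 0.075, limma adjusted p = 0.00691), and Crp, C-reactive protein (-0.30 ± 0.082, limma adjusted p = 0.0401). Both probes of Serpina3n passed (-0.34 and -0.39), while of the Crp probes only probe 253, in block 3, did (-0.61 ± 0.092, limma adjusted p = 9.7e-07), and probe 125 had 0.0032 ± 0.084. Without centring neither gene passed (limma adjusted p = 0.103 for Serpina3n and 0.493 for Crp), and 0 genes of the list rose or fell. With the dye curve per block 1 gene of this list rose and 2 fell (5.43% of all genes passed): Orm1, an acute phase glycoprotein, rose (0.14 ± 0.028, limma adjusted p = 0.0323), Serpina3n fell (-0.32 ± 0.033, limma adjusted p = 0.00233) as did Cp, ceruloplasmin (-0.16 ± 0.034, limma adjusted p = 0.0418), and Crp did not pass (-0.091 ± 0.034, limma adjusted p = 0.183). The fall of Cp rested on probe 1862 (-0.29 ± 0.034, limma adjusted p = 0.00038), as probe 57 had -0.040 ± 0.047. Of the Crp probes, 253 passed as lower after the curve (-0.25 ± 0.034, limma adjusted p = 0.00102) and 125 had 0.067 ± 0.048. Stat3, the transcription factor that IL-6 activates, had 0.098 ± 0.077 and 0.082 ± 0.031 after the curve (limma adjusted p = 0.683 and 0.191). One of its 2 probes, probe 723, passed as higher after the curve (0.14 ± 0.035, limma adjusted p = 0.0326), and probe 1418 had 0.021 ± 0.040 (limma adjusted p = 0.854). A2m probe 1834 also passed as higher after the curve (0.14 ± 0.038, limma adjusted p = 0.0481), but A2m in the fit over genes did not (limma adjusted p = 0.0592). On centred values Fgg probe 287, in block 3, passed as lower (-0.39 ± 0.093, limma adjusted p = 0.00361), and probe 203 had -0.12 ± 0.084. Cp probe 1862 passed as lower there too (-0.36 ± 0.084, limma adjusted p = 0.00243), and probe 57 had 0.016 ± 0.087. After the curve Fgg probe 287 had -0.023 ± 0.038.

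**Figure D5:**
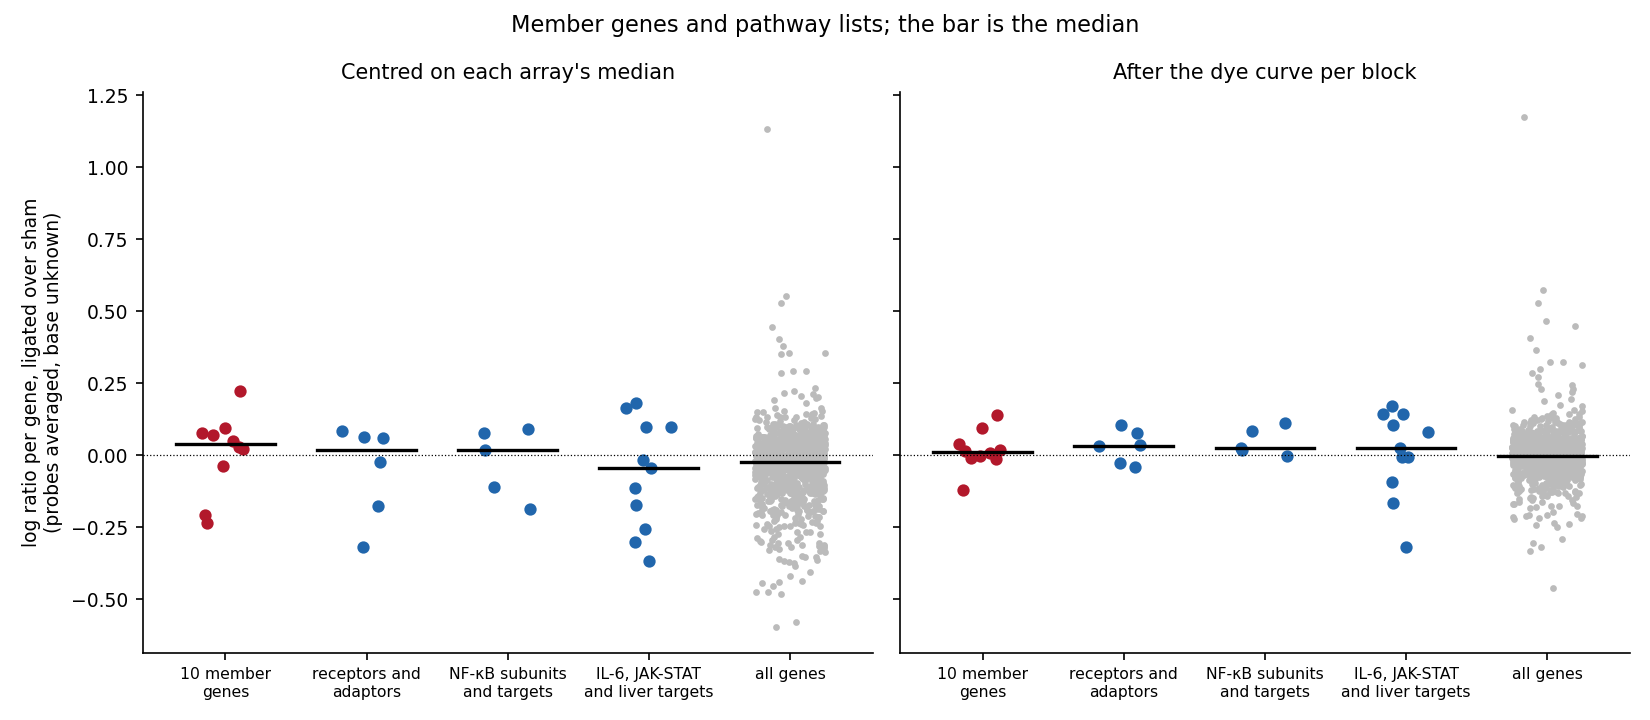
Log ratio per gene of ligated over sham with probes averaged (y axis, base unknown) for the 10 genes, the 3 pathway lists and all 958 genes, on centred values and after the dye curve per block; bars are medians. The medians of the 10 genes are 0.039 and 0.012, and those of all genes -0.024 and -0.0018.

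Few markers of the cells that make or answer these cytokines were measured. Of the macrophage and lymphoid list 1 of 15 genes was (Fcgr2b, -0.019 ± 0.081), of the neutrophil list 1 of 7 (S100a9, 0.085 ± 0.073), of the endothelial list 3 of 7 (-0.18 to -0.051), of the blood list 1 of 4 (Pf4, -0.080 ± 0.083) and of the cholangiocyte list 0 of 5. None of these genes passed with probes averaged. Of the Pf4 probes, 292, in block 3, passed as lower by itself on centred values (-0.30 ± 0.093, limma adjusted p = 0.0337). Pf4 probe 78 had 0.14 ± 0.084 there, and after the dye curve per block probe 292 had -0.050 ± 0.034 (limma adjusted p = 0.480). The 4 measured of 7 hepatocyte markers had estimates below 0, between -0.24 and -0.079, and none passed on centred values, while Ttr, the transthyretin gene, fell after the dye curve per block (-0.17 ± 0.036, limma adjusted p = 0.0436). The part of cell composition in the ratios of the 10 genes was not tested.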

How the data were processed

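The authors deposited log ratios of both channels for 1936 probes on each of 4 arrays. Their base, background correction and normalization are not stated in the sources used here, and with spot signals unknown the number of arrays limits the precision. Probe symbols, taken from the platform annotation, were brought up to date with RefSeq gene IDs (GRCr8): 1432 probes held a single symbol, 19 several and 485 none, and all 12 probes described here matched. Each array was centred on its median, and an operation and a dye term were fitted over all probes with lmFit and eBayes of limma 3.58.1 (R 4.3.3), and adjusted p-values (Benjamini-Hochberg) under 0.05 were called. With 2 residual degrees of freedom and 76.2 from limma's prior, SEs and p-values reflect mainly a pooled spread. Opposite dye orientations correlated across probes at -0.93 to -0.77, and same orientations at 0.86 and 0.94.

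Alternatives were no centring, quantile normalization, equal scaling, lowess dye curves (span 0.667) per array and per block of 121 probes, reading the values as Cy5 over Cy3, omitting the dye term, a robust prior, averaged probes and leaving out each array. The dye-cancelling pairs and the fit without blocks 3 and 4 were added after the values were seen. The genes, the lists and the naming rule (all 12 probes; of the lists, genes past the threshold on centred values or after the dye curve per block, and those nearest the 10 genes) were chosen with earlier results of these data known. Single probes of listed genes (Il1rl1, Stat3, Crp, Cp, Serpina3n, A2m, Fgg and Pf4) and Ttr were named after their values were seen. The scripts were tested on simulated data.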

Additional observations from a re-analysis of the deposited data

Results flagged for a closer look

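The centred value of Nfkb1 (probe 664) on array 4, -0.16, lay apart from those of the other 3 arrays (0.092, 0.13 and 0.14). It was the only such value in 24 sets of 4 values, which are the 12 probes centred and after the dye curve per block, and about 1 in 20 sets stands apart in this way by chance. Without array 4 the estimate for Nfkb1 was 0.12 (limma adjusted p = 0.461).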

How the results depend on the processing

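The count of 0 among the 12 probes held under no centring, quantile normalization, both dye curves, equal scaling, no dye term and a robust prior, and without array 1, 2 or 3. It was 2 without array 4 (Il1a lower and Nfkbia higher, where 241 of all probes passed), so that leaving out each replicate gave 0 to 2, 2 without blocks 3 and 4, and 7 in the Cy5 over Cy3 reading. The count over all probes, 111, was 3 without centring, 12 after quantile normalization, 7 after the dye curve per array, 62 with equal scaling, 67 with a robust prior, 0 without the dye term (limma; 5 at unadjusted p under 0.05), 1599 in the Cy5 over Cy3 reading, and 12 to 241 with each replicate left out; 37 probes kept a single sign over the 4 centred arrays, and 17 of these an absolute log ratio over 0.2. The prior and the shared SE change with these settings, and the cause of each shift was not tested.

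Signs turned after the dye curve per block for Il1a (0.016), Il1r1 (-0.014) and Il1r2 (-0.0087), in the fits over probes and over genes, and for Il1b probe 674 (-0.0056), and without blocks 3 and 4 for Il1b probe 674 (-0.025). In the Cy5 over Cy3 reading they turned for Il1a (0.028), Il1b (-0.50 and -0.30), Il1r2 (-0.19), Nfkbia (-0.011), Icam1 (1.00) and Ccl5 (-0.049 and -0.034), while Il1r1 (0.48) and Il6r (0.21) passed as higher and Il6st (-0.66) as lower. With each replicate left out the ranges that crossed 0 were -0.034 to 0.040 and -0.0034 to 0.083 for Il1b probes 674 and 1158, -0.026 to 0.082 for Il1r1, -0.064 to 0.20 for Il1r2, -0.096 to 0.019 for Il6st, -0.023 to 0.12 for Nfkb1 and -0.033 to 0.10 for Ccl5 probe 1027. No paired analysis was possible because all 4 arrays form 1 group, so that replicate numbers link no samples between groups; the dye-cancelling pairs combine arrays within it. No filter on dim probes, background correction or slide term was run, since only log ratios were used.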
